A study of Mus musculus with 12 samples.

Results

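The MAP kinase phosphatases are dual-specificity phosphatases (DUSP), enzymes that switch off MAP kinases by removing the phosphate from both the threonine and the tyrosine of the activation loop. Their genes were followed here in mouse osteoclast precursor cells given dexamethasone, a synthetic glucocorticoid. The 9 listed members, Dusp1, Dusp2, Dusp3, Dusp4, Dusp5, Dusp6, Dusp7, Dusp10 and Dusp16, were found in the gene table by symbol, 9 of 28293 genes in all. All 9 were among the 13775 genes with enough counts to be tested.

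The cells were bone marrow macrophages from femurs and tibias of wild-type male mice aged 6 months, grown for 3 days in 10 ng/ml M-CSF, the growth factor of the macrophage lineage. The RANKL+Dex group (6 libraries) received 25 ng/ml RANKL, the cytokine that drives osteoclast formation, together with 10 nM dexamethasone for 24 h. The RANKL group (6 libraries) received 25 ng/ml RANKL without dexamethasone for 24 h, and cells of both groups were kept with 10 ng/ml M-CSF. Each group held 1 library of each of 6 batches named in the labels. The main test compares the groups within batches. Its p-values and intervals rest on the spread of the treatment difference between batches, combined with spread information pooled over all tested genes. Whether the batches were different mice is not known, since the sources used here do not give the number of mice. Library totals ran from 16820193 to 28523595 counts in RANKL+Dex cells and from 17674405 to 25451498 counts in RANKL cells.

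In osteoclast precursors, RANKL activates ERK, JNK and p38 through its receptor RANK and the adaptor TRAF6, and M-CSF activates ERK through its own receptor. The phosphatases limit these signals. Many of them are themselves induced by MAP kinase activity, which closes a feedback loop, and Dusp1 is also a textbook glucocorticoid-induced gene in macrophages. By location and preference the family falls into inducible nuclear enzymes (Dusp1, Dusp2, Dusp4, Dusp5), cytoplasmic ERK-directed enzymes (Dusp6, Dusp7) and enzymes that prefer JNK and p38 (Dusp10, Dusp16). Dusp3 is a small phosphatase that lacks the kinase-docking domain of the others.

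Dexamethasone moved 4 of the 9 members, 2 in each direction, with fitted differences from -15.3% (Dusp6) to 23.4% (Dusp16). Dusp1 and Dusp16 rose, Dusp4 and Dusp6 fell, and Dusp2, Dusp3, Dusp5, Dusp7 and Dusp10 did not pass the threshold (adjusted p under 0.05, edgeR's quasi-likelihood test with batch as a block and Benjamini-Hochberg adjustment over all tested genes). The same fit called 21.8% of all tested genes, 10.6% higher and 11.1% lower, and nothing particular to the family is read from 4 of 9 beside that background. Without the batch term, 1 of 9 members (Dusp4) passed, against 15.5% of all tested genes, of which 7.98% were higher and 7.55% lower. Of the 9 members, 4 went in the same direction in all 6 batches, against 21.8% of all tested genes. They were the 4 that passed. The test with batch as a block uses the same differences within batches, so this is no separate support. Levels are given as CPM, the counts of a gene scaled to a common library total with TMM factors. For each of the 9 members the CPM ranges of the groups overlapped. They were apart for only 7.01% of all tested genes, so nothing particular to the family is read from this either.

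**Figure D1:**
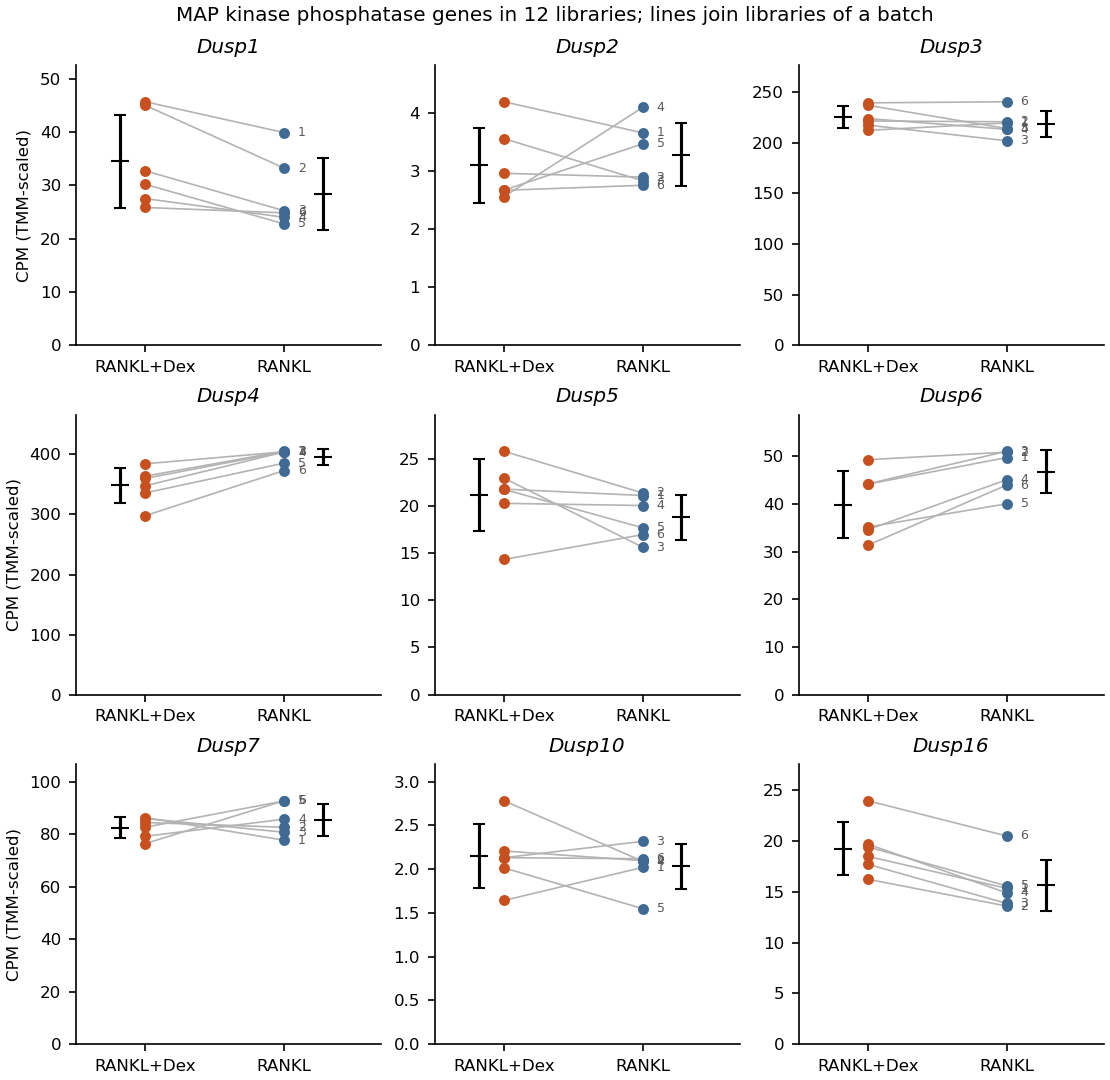
Level of each of the 9 phosphatase genes in every library, as TMM-scaled CPM, with RANKL+Dex libraries left of RANKL libraries. Points are single libraries, grey lines join the libraries of a batch (numbered), and black bars are the mean and SD. The ranges of the groups overlap in every panel, with Dusp1 between 25.9 and 45.7 CPM in RANKL+Dex cells and between 22.8 and 39.9 CPM in RANKL cells.

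Dusp1 encodes the nuclear phosphatase that dephosphorylates p38 and JNK, and ERK to a lesser degree. Its annotated gene (ENSMUSG00000024190) lies on chromosome 17 at 26724564 to 26781102, minus strand, GRCm39. Dusp1 measured 45.7, 45.0, 32.7, 27.5, 30.2 and 25.9 CPM in RANKL+Dex cells of batches 1 to 6, against 39.9, 33.3, 25.3, 24.0, 22.8 and 24.9 CPM in RANKL cells of the same batches. Batches 1 and 2 were high in both groups, and in every batch the RANKL+Dex library was above its RANKL partner. The means were 34.5 ± 8.74 CPM in RANKL+Dex cells and 28.3 ± 6.78 CPM in RANKL cells (SD, n = 6 each). Within batches the log2 fold change was 0.28 ± 0.05 (SE), a rise of 21.6% (95% interval 12.4 to 31.6%, edgeR adjusted p = 0.00107).

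The rise of Dusp1 passed the threshold only with the batch term. Without it the log2 fold change was 0.29 ± 0.16 (edgeR adjusted p = 0.244), since the spread between batches then counts as error. Fold changes in single batches, on log2(CPM + 0.5) values, ran from 1.04 in batch 6 to 1.35 in batch 2. The annotated span of Dusp1 is 56539 bp against 2882 bp for its RefSeq gene, and it overlaps the start of Ergic1 on the opposite strand by 640 bp. The protocols state no strand marking, so reads from the overlap cannot be assigned with certainty. Ergic1, a gene of the secretory pathway, had 25259 counts in all and changed by -0.03 ± 0.04 on the log2 scale (edgeR adjusted p = 0.621, not past the threshold).

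Textbook glucocorticoid targets, 4 in number, were set beside Dusp1, and all of them rose by more than Dusp1. The 4 were listed with earlier results of these data known, so their rise is no independent check of the treatment. Fkbp5, a chaperone of the glucocorticoid receptor, was 2.72-fold higher in RANKL+Dex cells. The clock gene Per1 was 2.59-fold higher, the transcription factor gene Klf9 2.60-fold higher and Tsc22d3, which encodes GILZ, 1.90-fold higher. Dusp1 was 1.22-fold higher in the same fit, and its highest single-batch ratio, 1.35, was below the lowest of each of the 4 targets (1.49 for Tsc22d3 in its lowest batch).

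Dusp16 encodes a phosphatase that acts on JNK and p38 and shuttles between nucleus and cytoplasm. Its gene (ENSMUSG00000030203) spans 134692431 to 134769588 on chromosome 6, minus strand, GRCm39. Dusp16 measured 18.5, 16.2, 17.7, 19.7, 19.4 and 24.0 CPM in RANKL+Dex cells of batches 1 to 6, against 15.3, 13.6, 13.9, 14.9, 15.6 and 20.5 CPM in RANKL cells. Batch 6 was the highest in both groups, and without it the groups would not have overlapped. The means were 19.3 ± 2.63 CPM in RANKL+Dex cells and 15.6 ± 2.51 CPM in RANKL cells (SD, n = 6 each).

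The log2 fold change of Dusp16 was 0.30 ± 0.06, a rise of 23.4% (edgeR adjusted p = 0.00113), and without the batch term it was 0.30 ± 0.10 (edgeR adjusted p = 0.0594). The single-batch fold changes of Dusp16 were the most even among the 4 members that changed, between 1.17 and 1.31. Their log2 values ran from 0.22 to 0.39, against 0.06 to 0.43 for Dusp1.

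Dusp4 encodes an inducible nuclear phosphatase of ERK, JNK and p38 and was the most abundant member per kilobase of exon. Its gene (ENSMUSG00000031530) spans 35274451 to 35287048 on chromosome 8, plus strand, GRCm39. Dusp4 measured 364, 360, 384, 348, 336 and 298 CPM in RANKL+Dex cells of batches 1 to 6, against 405, 404, 404, 404, 386 and 373 CPM in RANKL cells. The groups overlapped through batch 3 of RANKL+Dex and batch 6 of RANKL, and every batch was lower with dexamethasone. The means were 348 ± 29.6 CPM in RANKL+Dex cells and 396 ± 13.6 CPM in RANKL cells (SD, n = 6 each).

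The log2 fold change of Dusp4 was -0.19 ± 0.03 (edgeR adjusted p = 0.000703), a difference of -12.2%. Dusp4 was the only member that passed without the batch term as well, at -0.18 ± 0.05 (edgeR adjusted p = 0.0175).

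Dusp6 encodes a cytoplasmic phosphatase specific for ERK and is itself induced by ERK activity. Its gene (ENSMUSG00000019960) spans 99099093 to 99103351 on chromosome 10, plus strand, GRCm39. Dusp6 measured 44.2, 49.3, 44.2, 34.6, 35.2 and 31.4 CPM in RANKL+Dex cells of batches 1 to 6, against 49.7, 50.9, 51.1, 45.1, 40.0 and 44.0 CPM in RANKL cells. Batches 1 to 3 were high and batches 4 to 6 low in both groups, and each RANKL+Dex library was below its RANKL partner. The means were 39.8 ± 7.05 CPM in RANKL+Dex cells and 46.8 ± 4.48 CPM in RANKL cells (SD, n = 6 each). The log2 fold change was -0.24 ± 0.05 (edgeR adjusted p = 0.00304), a difference of -15.3%, and without the batch term it was -0.23 ± 0.10 (edgeR adjusted p = 0.129).

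**Figure D2:**
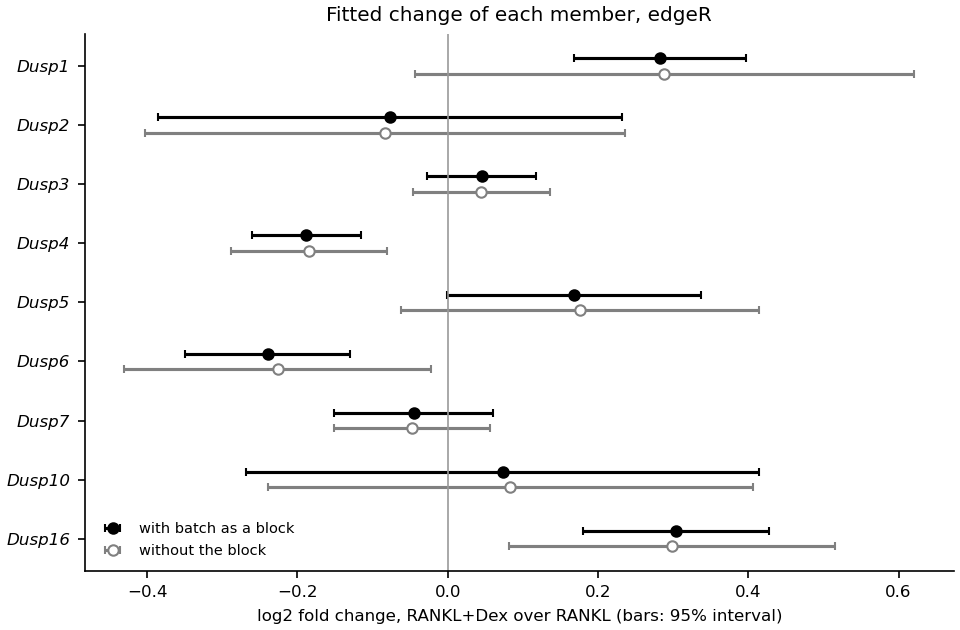
Log2 fold change (RANKL+Dex over RANKL) of each phosphatase gene with its 95% interval, from edgeR with batch as a block and from the fit without it. The intervals of Dusp1, Dusp16, Dusp4 and Dusp6 exclude 0 with the block, and that of Dusp1 widens most without it, from an SE of 0.05 to 0.16.

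Promoters of Dusp1, Dusp16 and Dusp6 are shown because they belong to the members that changed and have an entry in the RefSeq table. Each runs from 250 bases before to 50 bases after the annotated start on GRCm38.p6, a different build from the gene coordinates above. Capitals mark TGACG and the full TGACGTCA, the core and the palindrome of the cyclic AMP response element, searched on both strands.
Dusp1, chr17:26508423-26508722, minus strand: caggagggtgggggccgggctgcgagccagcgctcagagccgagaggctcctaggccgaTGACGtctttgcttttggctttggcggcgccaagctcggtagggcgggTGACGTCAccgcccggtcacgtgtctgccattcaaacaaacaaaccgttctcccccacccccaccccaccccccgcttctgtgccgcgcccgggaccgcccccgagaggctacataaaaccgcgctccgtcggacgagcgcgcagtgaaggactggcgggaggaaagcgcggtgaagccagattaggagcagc
Dusp16, chr6:134792579-134792878, minus strand: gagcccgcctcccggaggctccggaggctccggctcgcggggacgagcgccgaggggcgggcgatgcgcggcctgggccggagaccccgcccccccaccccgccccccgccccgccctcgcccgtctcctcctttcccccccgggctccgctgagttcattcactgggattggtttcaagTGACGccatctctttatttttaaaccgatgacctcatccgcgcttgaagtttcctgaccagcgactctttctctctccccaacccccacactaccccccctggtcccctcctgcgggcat
Dusp6, chr10:99262981-99263280, plus strand: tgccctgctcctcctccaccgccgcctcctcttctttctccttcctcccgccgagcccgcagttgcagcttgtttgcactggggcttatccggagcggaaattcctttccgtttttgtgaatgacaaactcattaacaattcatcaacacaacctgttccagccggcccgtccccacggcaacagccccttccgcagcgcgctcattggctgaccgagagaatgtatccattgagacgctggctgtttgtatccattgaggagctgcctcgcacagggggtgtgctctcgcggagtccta

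Counted from the start, Dusp1 held TGACGTCA from position -143 and a further TGACG from position -191. Dusp16 held TGACG from position -70, and Dusp6 held neither. The promoters of Dusp5 and Dusp2 held the core on the other strand, which makes 4 of the 8 members with an entry, against 20.8% of 32851 RefSeq promoters of this length. The full palindrome, whose letters include the core, was in 1 of the 8 against 1.79% of all promoters. The core therefore occurred among members that rose and among members that did not pass the test.

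None of the 8 windows held the glucocorticoid receptor hexamer AGAACA (19.0% of all promoters), the AP-1 letters TGANTCA (7.81%), the ETS letters CCGGAAGT (3.89%) or TATAAA (13.6%). The full glucocorticoid response element, AGAACA and TGTTCT with any 3 bases between them, was in 0.00913% of all promoters and in none of the 8. A match or its lack describes these letters in this window and says nothing on binding. Dusp1 had 67.0% G and C, Dusp16 68.7% and Dusp6 57.3%, against a median of 52.7% over all promoters.

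Among the inducible nuclear enzymes, Dusp5, which acts on ERK alone, and Dusp2, which acts on ERK and p38, did not pass. Dusp5 (ENSMUSG00000034765, chromosome 19, 53517540 to 53530862, plus strand) ranged from 14.3 to 25.8 CPM with a median of 21.8 in RANKL+Dex cells, and from 15.6 to 21.4 CPM with a median of 18.9 in RANKL cells. Its log2 fold change was 0.17 ± 0.08 (edgeR adjusted p = 0.152), with a 95% interval of 0.00 to 0.34. Dusp5 was higher with dexamethasone in 5 batches and lower in batch 6, at 0.85-fold. Without batch 6 it passed, at 0.24 (edgeR adjusted p = 0.0389).

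Dusp2 (ENSMUSG00000027368, chromosome 2, 127178079 to 127180296, plus strand) was low, with 45 to 85 counts a library in RANKL+Dex cells and 48 to 94 in RANKL cells. It ranged from 2.55 to 4.18 CPM in RANKL+Dex cells and from 2.75 to 4.09 CPM in RANKL cells. Batches were split, 3 higher and 3 lower. The log2 fold change of -0.08 ± 0.15 (edgeR adjusted p = 0.767) had a 95% interval of -0.39 to 0.23, which holds the value of Dusp6 (-0.24), so a change of that size is not excluded.

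Dusp7, the cytoplasmic ERK phosphatase most like Dusp6, was the steadiest member between batches. Dusp7 (ENSMUSG00000053716, chromosome 9, 106245831 to 106252923, plus strand) averaged 82.5 ± 3.96 CPM in RANKL+Dex cells and 85.4 ± 6.24 CPM in RANKL cells (SD, n = 6 each). It was higher with dexamethasone in batches 1 to 3 and lower in batches 4 to 6, and its fitted log2 value was -0.05 ± 0.05 (edgeR adjusted p = 0.581, 95% interval -0.15 to 0.06). That interval leaves out the fall measured for Dusp6 (-0.24) but overlaps the 95% interval of Dusp6 (-0.35 to -0.13). The difference between the members was not tested.

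Dusp10, the other JNK- and p38-directed enzyme, was the least abundant member, with 31 to 62 counts a library in RANKL+Dex cells and 34 to 52 in RANKL cells. Dusp10 (ENSMUSG00000039384, chromosome 1, 183745499 to 183807833, plus strand) averaged 2.15 ± 0.368 CPM in RANKL+Dex cells and 2.03 ± 0.257 CPM in RANKL cells (SD, n = 6 each). Its log2 fold change was 0.07 ± 0.16 (edgeR adjusted p = 0.800), with a 95% interval of -0.27 to 0.41 that holds the value of Dusp16. Dusp10 shares 1272 bp with the antisense gene 1700056E22Rik, which had 165 counts in all against 519 for Dusp10, so part of these few counts may belong to either gene.

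Dusp3, the small phosphatase of ERK and JNK, had 212 to 239 CPM in RANKL+Dex cells and 202 to 241 CPM in RANKL cells. Dusp3 (ENSMUSG00000003518, chromosome 11, 101861969 to 101877839, minus strand) averaged 225 ± 10.8 CPM in RANKL+Dex cells and 218 ± 12.7 CPM in RANKL cells (SD, n = 6 each). Its log2 fold change of 0.05 ± 0.03 (edgeR adjusted p = 0.390) had the narrowest interval of the 5 members that did not pass, -0.03 to 0.12.

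Per kilobase of exon, where genes of different length can be set side by side, Dusp4 led the family by a wide margin. The lengths are those of GENCODE M21 exons on GRCm38, whereas the count table carries GRCm39 gene positions. Levels per kb are therefore approximate. The annotated span of Dusp1, for example, is 56539 bp against 2882 bp for its RefSeq gene. It had 127 ± 10.8 CPM per kb in RANKL+Dex cells and 145 ± 4.95 CPM per kb in RANKL cells (SD, n = 6 each). Dusp3 followed with 48.1 and 46.7 CPM per kb, Dusp7 with 24.6 and 25.4, and Dusp6 with 12.7 and 14.9 (RANKL+Dex and RANKL cells). The 4 leading members thus include both listed cytoplasmic ERK-directed enzymes. Dusp1 had 10.4 CPM per kb in RANKL+Dex cells and 8.56 in RANKL cells, and Dusp5 8.55 and 7.60. The lowest were Dusp16 with 2.47 and 2.00, Dusp2 with 1.55 and 1.64, and Dusp10 with 0.707 and 0.668 CPM per kb.

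The order of the means was the same in both groups. Over all 12 libraries the ranges overlapped for 3 pairs of neighbours. Dusp6 was above Dusp1 in 12 of 12 libraries, Dusp1 above Dusp5 in 10 of 12 and Dusp16 above Dusp2 in 11 of 12. The other 5 pairs of neighbours did not overlap. As a share of the summed level per kilobase, Dusp4 made up 53.8 ± 1.64% of the family's mRNA in RANKL+Dex cells and 57.3 ± 1.48% in RANKL cells (SD, n = 6 each). Dusp1 made up 4.38 ± 0.918% in RANKL+Dex cells and 3.38 ± 0.736% in RANKL cells. By this measure the member best known as a glucocorticoid target was a minor one of this set in both groups.

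**Figure D3:**
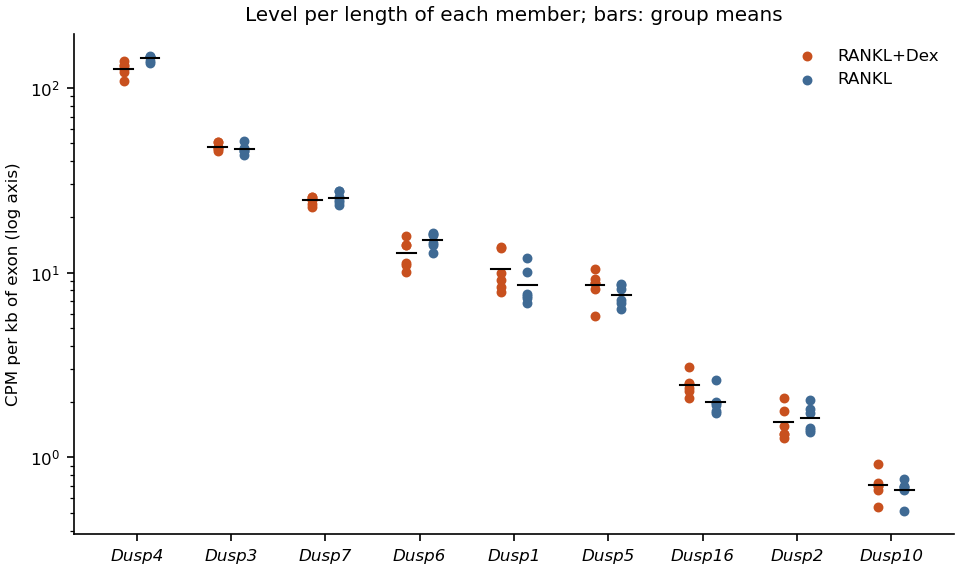
Level of each phosphatase gene per kilobase of exon (TMM-scaled CPM per kb, log axis), with single libraries as points and RANKL+Dex beside RANKL. Dusp4 (127 and 145 CPM per kb in RANKL+Dex and RANKL cells) stands far above Dusp10 (0.707 and 0.668), and most neighbours in the order do not overlap.

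For 8 of 9 members more of the variation lay between the 6 batches than between the 2 treatments. Sums of squares over 6 batches take up more of random variation than those over 2 treatments. A larger batch share alone therefore shows no batch effect. Of the variation of Dusp1 over the 12 libraries (log2 scale), 78.9% lay between batches, 16.9% between treatments and 4.15% in the rest. The batch share of Dusp1 was at or above that of 92.5% of all tested genes. For Dusp6 the shares were 59.8% batch and 29.8% treatment, and for Dusp16 57.9% and 40.5%, with 1.60% in the rest. Dusp4 was the exception, with 37.7% between batches and 53.7% between treatments. Dusp7, counted among the 8, had 13.3% between batches, 7.81% between treatments and 78.9% in the rest. The medians of all tested genes, taken separately, were 43.1% for batch and 14.5% for treatment.

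The batches did not order the members alike. Batch means of Dusp1 spanned 1.67-fold, with batches 1 and 2 on top, whereas Dusp16 was highest in batch 6. Dusp6, Dusp5 and Dusp4 had smaller spans of 1.34-, 1.49- and 1.18-fold. The ratio of RANKL+Dex to RANKL was lowest in batch 6 for 6 of 9 members, against 20.6% of all tested genes. Dusp2 reached its lowest ratio in batch 4, the batch whose removal turned its sign.

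Immediate early genes, which respond within minutes to MAP kinase activity and to handling of cells, were also often high in batches 1 and 2. Of the 20 tested genes of that list, 14 were above their mean in both batch 1 and batch 2, as were 4 of the 9 members and 26.7% of all tested genes. Below their mean in both were 1 gene of that list (Gadd45b), 3 of the 9 members and 3430 of the 13775 tested genes. Egr1, an early transcription factor gene driven by ERK, was 1.33 log2 units above its mean in batch 1, the most of that list. The part of this in the batch spread of Dusp1 was not tested.

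**Figure D4:**
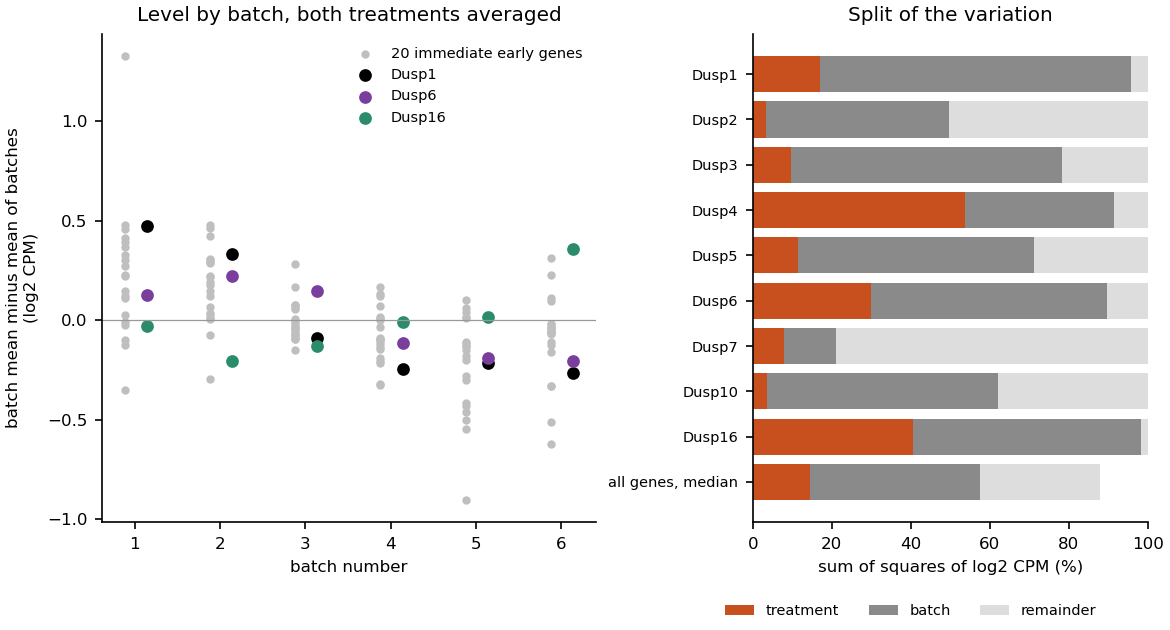
Left, batch mean minus the mean of all batches (log2 CPM, both treatments averaged) by batch number for Dusp1, Dusp6, Dusp16 and the 20 tested immediate early genes, where Dusp1 is highest in batches 1 and 2 and Dusp16 in batch 6. Right, percent of the sum of squares of log2 CPM that lies between treatments, between batches and in the remainder, for each phosphatase gene and as the medians of all tested genes, which do not add up to the whole; the batch part of Dusp1 is 78.9% and the treatment part of Dusp4 53.7%.

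The genes whose profiles over the 12 libraries lay closest to a changed member were found by the root-mean-square difference of mean-centred log2 values among 9276 genes. Closest to Dusp1 were Ecm1 at 0.167, Adamts4 at 0.169 and Tbc1d30 at 0.171 log2 units, against a median gene at 0.349. Closest to Dusp4 were Ski at 0.0497, Itpr2 at 0.0507 and Wdr83 at 0.0515, against 0.169. Ski encodes a repressor of TGF-beta signalling and Itpr2 a calcium channel of the endoplasmic reticulum. Closest to Dusp6 were Glul (glutamine synthetase) at 0.0849, Tpra1 at 0.0855 and Nfya at 0.0886, against 0.249. Closest to Dusp16 were Ifi207 at 0.111, Cipc at 0.116 and Ghr (the growth hormone receptor) at 0.120, against 0.253. Differences between batches and between treatments both enter every such likeness, so genes with a like fold change are favoured.

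The other dual-specificity phosphatases, 17 tested of 21 listed, gave 3 higher, 3 lower and 11 that did not pass. Their median log2 fold change was -0.03 against 0.00 for all tested genes. Of all tested genes 10.6% were higher and 11.1% lower, the background for this list and those below. Nothing particular to a list is read from its count. Dusp14, a small phosphatase known to restrain T-cell signalling, had the largest rise, with 6.15 ± 0.850 CPM in RANKL+Dex cells and 3.50 ± 0.469 CPM in RANKL cells (SD, n = 6 each, log2 fold change 0.81 ± 0.11, edgeR adjusted p = 3.79e-05). Dusp9, a cytoplasmic ERK phosphatase of the same subgroup as Dusp6 and Dusp7, fell, with 10.2 ± 1.81 CPM in RANKL+Dex cells and 13.4 ± 1.24 CPM in RANKL cells (log2 fold change -0.41 ± 0.09, edgeR adjusted p = 0.00318). Ssh1, which activates cofilin, fell by 0.22 on the log2 scale (edgeR adjusted p = 0.00119). Dusp18 rose by 0.34 (edgeR adjusted p = 0.0174), a call lost without batch 4 (adjusted p = 0.0736) or batch 6 (0.0526).

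The most abundant gene of that list, Dusp11, an RNA phosphatase, had 131 CPM in RANKL+Dex cells and 134 CPM in RANKL cells (edgeR adjusted p = 0.651). Outside the naming rule, and chosen after their values were seen, were Dusp8, a JNK and p38 phosphatase, at 0.46 ± 0.14 (edgeR adjusted p = 0.0242) and the pseudophosphatase gene Styx at -0.24 (edgeR adjusted p = 0.0291). Styx did not pass without batch 2 (adjusted p = 0.0606), 3 (0.0956), 4 (0.0957) or 5 (0.0847). Dusp8 did not pass without the batch term (adjusted p = 0.177), without batch 1 (0.0715) or without batch 3 (0.0788).

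Of 14 listed MAP kinase genes, 11 were tested, and 1 was higher and 2 lower, beside 10.6% and 11.1% of all tested genes. The median log2 fold change of the list was -0.11. The atypical kinase gene Mapk4 had the largest fall, with 7.35 CPM in RANKL+Dex cells and 14.1 CPM in RANKL cells (log2 fold change -0.96 ± 0.08, edgeR adjusted p = 2.20e-07). Mapk6, the other member of that atypical pair and the most abundant MAP kinase gene by CPM, rose, with 586 CPM in RANKL+Dex cells and 516 CPM in RANKL cells (0.18 ± 0.03, edgeR adjusted p = 0.000241). Mapk14, which encodes p38 alpha, fell, with 116 CPM in RANKL+Dex cells and 129 CPM in RANKL cells (-0.15 ± 0.04, edgeR adjusted p = 0.0151). That call was lost without batch 4, 5 or 6 (adjusted p = 0.0696, 0.0502 and 0.0619). Named outside the rule, Mapk3, an ERK gene (-0.10, edgeR adjusted p = 0.0575), and the JNK genes Mapk8 (-0.12, 0.0877) and Mapk9 (-0.11, 0.0702) did not pass.

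Of the 7 MAP2 kinase genes, the direct activators of the MAP kinases, 0 passed in edgeR, where 21.8% of all tested genes passed. In DESeq2 0 of the 7 passed, and 2 were higher and 1 lower at an unadjusted edgeR p under 0.05. The most abundant, Map2k3, had 381 CPM in RANKL+Dex cells and 399 CPM in RANKL cells (log2 fold change -0.07, edgeR adjusted p = 0.130). Of 24 MAP3 kinase and adaptor genes, 1 was higher and 3 lower, beside 10.6% and 11.1% of all tested genes. The median of that list was -0.03. Map3k1, an activator of the JNK branch, fell by 0.30 on the log2 scale (edgeR adjusted p = 0.000312), with 21.6 CPM in RANKL+Dex cells and 26.5 CPM in RANKL cells. Map3k9 fell by 0.35 (edgeR adjusted p = 0.00988, 0.0590 without batch 2) and Map3k4 by 0.17 (0.0139, and 0.0581 without batch 5). Ksr1, a scaffold of the ERK cascade, rose by 0.79 at 1.86 CPM in RANKL+Dex cells and 1.07 CPM in RANKL cells (edgeR adjusted p = 0.0358, 0.0819 without the batch term). Ksr1 also missed the threshold without batch 2 (adjusted p = 0.0661), 4 (0.121), 5 (0.127) or 6 (0.0597). Tab2, an adaptor between TRAF6 and TAK1 and the most abundant of the list, had 234 CPM in RANKL+Dex cells and 231 CPM in RANKL cells (0.02 on the log2 scale, edgeR adjusted p = 0.758).

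Other phosphatases that act on MAP kinases gave 2 higher and 3 lower of 10 tested genes of 12 listed. The shares of all tested genes were 10.6% and 11.1%. The median of the list was 0.05. Ptpn7, a tyrosine phosphatase of ERK and p38 in blood cells, fell, with 48.7 CPM in RANKL+Dex cells and 62.2 CPM in RANKL cells (log2 fold change -0.36 ± 0.04, edgeR adjusted p = 1.80e-05). Ptprj fell by 0.11 (edgeR adjusted p = 0.0191) and Ptpn1 by 0.10 (0.0226), and Ppm1d rose by 0.22 (0.0323). The catalytic subunit gene Ppp2ca, the most abundant of the list, rose by 0.09 (edgeR adjusted p = 0.0387). Of these 5 calls, that of Ptpn7 was kept in all 10 alternative edgeR settings, Ptprj in 7, Ptpn1 in 6, and Ppm1d and Ppp2ca in 4 each.

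Feedback genes of the ERK pathway include the Sprouty and Spred inhibitors and the ETS factor genes that ERK induces, as it does Dusp6. Of 13 listed genes 10 were tested, and 2 were higher and 3 lower, beside 10.6% and 11.1% of all tested genes. The median of the list was -0.12. Spred1 fell, with 389 CPM in RANKL+Dex cells and 482 CPM in RANKL cells (log2 fold change -0.31 ± 0.03, edgeR adjusted p = 1.53e-06). Etv5 fell, with 20.8 CPM in RANKL+Dex cells and 28.4 CPM in RANKL cells (-0.45 ± 0.06, edgeR adjusted p = 1.75e-05). Phlda1 fell by 0.34 (edgeR adjusted p = 0.0163, 0.0617 without the batch term and 0.0624 without batch 4). Against that direction, Spry1 rose, with 72.5 CPM in RANKL+Dex cells and 57.6 CPM in RANKL cells (0.32 ± 0.07, edgeR adjusted p = 0.00286), and so did Errfi1, an inhibitor of the EGF receptor named outside the rule, by 0.25 (edgeR adjusted p = 0.0197, 0.220 without the batch term). The call of Errfi1 was also lost without batch 3 (adjusted p = 0.0693), 5 (0.0656) or 6 (0.0624).

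Immediate early genes, 20 tested of 21 listed, gave 4 higher and 4 lower, beside 10.6% and 11.1% of all tested genes. Their median was 0.01. The lower ones were Egr2, with 2.89 CPM in RANKL+Dex cells and 9.18 CPM in RANKL cells (log2 fold change -1.68 ± 0.12, edgeR adjusted p = 2.53e-08), Atf3 (-0.83 ± 0.06, 4.11e-08), Fos (-0.45 ± 0.05, 6.82e-06) and Myc (-0.35 ± 0.05, 6.88e-05). Fos, the AP-1 subunit that osteoclast formation needs and the most abundant of the list over both groups, had 192 ± 41.1 CPM in RANKL+Dex cells and 260 ± 33.3 CPM in RANKL cells (SD, n = 6 each). The higher ones, outside the naming rule, were Jun (0.21, edgeR adjusted p = 0.000332), Socs3 (0.67, 0.00201), Btg2 (0.69, 0.0218) and Klf6 (0.11, 0.0400). Of these 4, only Socs3 also passed without the batch term (adjusted p = 0.00908). Klf6 did not pass without batch 2, 3, 4, 5 or 6 (adjusted p from 0.0709 to 0.131), nor Btg2 without batch 2 (0.139) or 6 (0.0505).

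Of the p38 effector kinases and proteins that bind AU-rich elements, 12 were tested of 13 listed. Of these 12, 1 was higher and 2 lower, beside 10.6% and 11.1% of all tested genes, with a median of -0.09 for the list. Zfp36l2, an mRNA-destabilising protein gene, fell by 0.21 on the log2 scale (edgeR adjusted p = 0.000134), with 175 CPM in RANKL+Dex cells and 203 CPM in RANKL cells. Mknk2 rose by 0.15 (edgeR adjusted p = 0.0130, 0.0564 without batch 5) and Khsrp fell by 0.10 (0.0466, kept in 2 of 10 alternative edgeR settings). Mapkapk2, the kinase directly below p38, had 406 CPM in RANKL+Dex cells and 415 CPM in RANKL cells (edgeR adjusted p = 0.524).

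**Figure D5:**
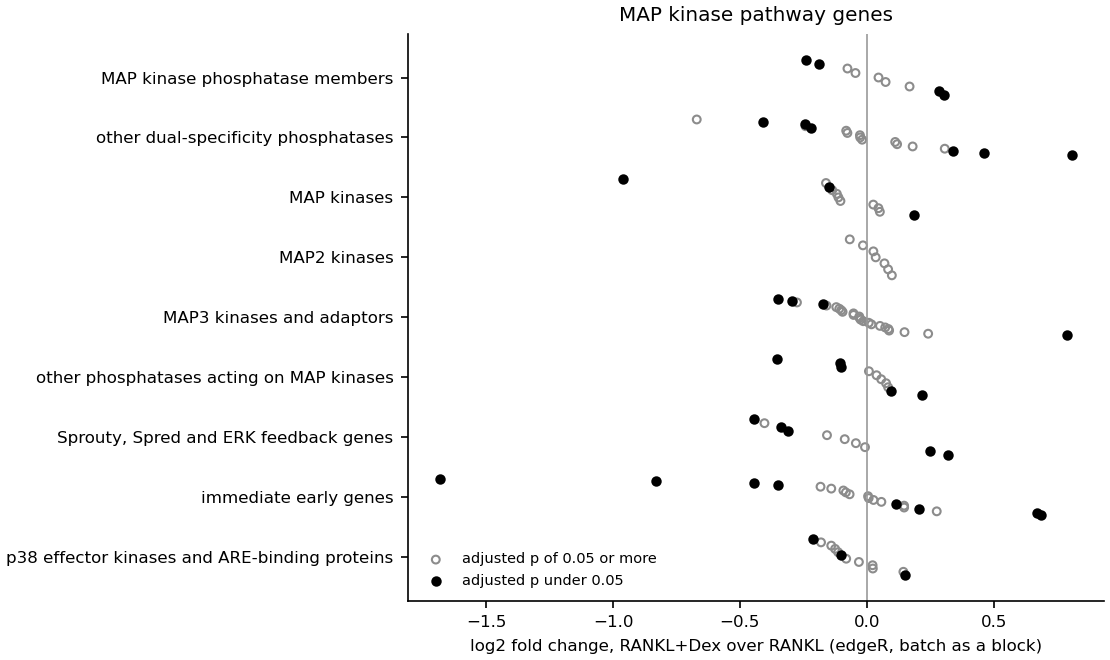
Log2 fold change (RANKL+Dex over RANKL) of every tested gene in the phosphatase family and in the 8 MAP kinase pathway lists, with genes past the edgeR threshold marked. Most genes lie near 0, while Egr2 (-1.68), Mapk4 (-0.96), Atf3 (-0.83), Dusp14 (0.81) and Ksr1 (0.79) lie far from it.

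The labelled cell type was checked against its markers. All 10 osteoclast markers were detected. Together they made up 49084 to 52910 CPM in RANKL+Dex libraries and 47527 to 51597 CPM in RANKL libraries. Of these markers 5 were higher and 1 lower, beside 10.6% and 11.1% of all tested genes. Macrophage markers summed to 3619 to 4373 CPM in RANKL+Dex libraries and 3491 to 4228 CPM in RANKL libraries, with 2 of 6 lower. Neutrophil markers moved with the treatment: they summed to 6.19 to 10.0 CPM in RANKL+Dex libraries and 22.8 to 36.7 CPM in RANKL libraries, and all 5 tested were lower. Stromal markers (4.44 to 18.8 CPM in RANKL+Dex, 8.65 to 22.6 CPM in RANKL) and endothelial markers (0.829 to 1.89 CPM and 1.87 to 3.84 CPM) were low, with 2 of 4 and 2 of 2 tested genes lower (1 of each without the batch term). Sums for B, T and NK, dendritic, mast and erythroid cell markers stayed under 5 CPM in every library. The 1 tested T and NK cell marker was lower with the batch term and did not pass without it. No marker found in the table was at 0 in all libraries, the part of these cells in the values of the phosphatases was not tested, and in bulk samples fewer cells of a type and less RNA per cell cannot be told apart.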

How the data were processed

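The authors deposited raw read counts per gene, whole numbers for 28293 genes in 12 libraries, from poly(A) RNA of paired-end sequencing, per the labels' protocols. The submitters' processing notes name FastQC 0.11.5, HISAT2 2.1.0, StringTie 1.3.3b, DESeq 1.28.0 and GRCm39, with no roles. The sources used here name no counting program, so reads of overlapping or antisense genes cannot be assigned with certainty. Columns were matched to samples by library name.

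Counts were tested with edgeR 4.0.16 in R 4.3.3 (quasi-likelihood, TMM, two-sided) after filterByExpr (minimum count 10, total 15), which left 13775 genes. Levels are TMM-scaled CPM, with n = 6 per group. CPM per kb uses the union of GENCODE M21 exons on GRCm38. Single-batch ratios add 0.5 CPM before the log. SE was derived from the F statistic, and intervals are 95% with the test's own degrees of freedom. Fold changes have RANKL+Dex on top. The variation over libraries was split by sums of squares of log2 CPM. Scripts were tested on simulated data.

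Batch was a block because the labels give each batch 1 library per group. Same-batch deviations from the group means correlated at 0.207, 0.307, 0.0502, 0.0585, 0.421 and 0.0897 in batches 1 to 6. The mean was 0.189. The mean of -0.0377 between libraries of different batches follows largely from centring on the group means and is no separate support. In 3 of 6 batches each library correlated best with its same-batch partner. Between libraries of a group the chi-square per gene was 3.24 to 19.9, so none repeated another.

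The members and lists were chosen with earlier results of these data known. Named genes are the 9 members, up to 4 called genes with the smallest p and the most abundant gene of each pathway list, 4 glucocorticoid targets, and 3 genes of like profile per changed member (mean of at least 5 CPM). Alternatives were no batch block, RLE factors, DESeq2 1.42.0, no filter, a filter of 1 CPM in 6 libraries, and each batch left out. Promoters come from RefSeq (GRCm38.p6).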

Additional observations from a re-analysis of the deposited data

Results flagged for a closer look

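Dusp16 in RANKL replicate 6 measured 20.5 CPM, far above the other 5 RANKL libraries, which lay between 13.6 and 15.6 CPM. Its gap to the nearest of them was 0.713 of the range of the group, above Dixon's critical value of 0.625 for 6 samples. The RANKL+Dex library of the same batch was also the highest of its group, at 24.0 CPM. It was the only one of 18 groups tested over the 9 genes (9 in RANKL+Dex and 9 in RANKL cells), and chance alone flags about 1 in 20 groups.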

How the results depend on the processing

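With no replicate block, 1 of the 9 phosphatase genes passed in place of 4: the log2 fold changes of Dusp1 (0.288), Dusp6 (-0.226) and Dusp16 (0.298) kept their size and missed the threshold, and the number of changed genes was 2139 in place of 3000, with 2125 shared. DESeq2, RLE factors and both other filters left 4 of 9 members called, with 2410 to 3077 genes in all. Leaving out a batch gave 4 to 5 members and 2097 to 3560 genes, and 23 to 40 pathway genes against 34. Over these fits the log2 fold change of Dusp1 ran from 0.251 to 0.323, Dusp16 from 0.284 to 0.321, Dusp4 from -0.208 to -0.160 and Dusp6 from -0.279 to -0.194, all past the threshold. Dusp5 ran from 0.0916 to 0.238 and passed without replicate 6. The sign turned for Dusp2 without replicate 4 (0.0412, lowest -0.160) and for Dusp7 without replicate 6 (0.00101, lowest -0.0848). The cause was not tested. Of the 38 pathway genes and glucocorticoid targets called, 20 passed in all 10 alternative edgeR settings. Dusp2 and Dusp10, with under 100 counts a library, had the widest intervals of the 9 members.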
